A study of Xiphophorus maculatus with 65 samples.

Results

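The genes described here are those of *Xiphophorus maculatus* JpA skin whose transcript level followed a 24 h wave with its fitted peak around midday. They were chosen from the counts themselves. In the 16 skin libraries of 24-month JpA males whose labels give the hour of sacrifice (2, 5, 8, 11, 14, 17, 20 and 23 h, 2 fish each), a cosine and a sine of the hour were fitted to each gene with the edgeR quasi-likelihood test, and genes were kept with an adjusted p under 0.05 and a fitted peak from 9 to under 15 h. Of 20624 genes tested, 411 followed the wave (1.99%), and 108 of them peaked in this window (0.524% of genes tested). After *per2*, *rora*, *sik2* and *ppp1r1b* were set aside by the rule, 105 genes remained, 40 with a gene name and 65 known by an NCBI identifier only. Of the genes set aside, 3 followed the wave and peaked in the window, while *rora* did not pass the test (edgeR adjusted p 0.107). Another 147 of the 411 genes peaked from 3 to under 9 h and 156 from 15 to under 3 h.

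The series holds 65 RNA-Seq libraries of skin and liver of 2 inbred strains, JpB (labelled Jp163B) and JpA (labelled Jp163A), all from males, and its labels state that no fish was treated. Besides the 16 timed libraries, it has 30 JpB skin libraries (9 to 12 months), 9 further JpA skin libraries (13 or 20 months), 4 JpB livers (9 months) and 6 JpA livers (13 or 20 months). These carry control words (sham, 0 min, 0pt, UV-0kJ, CO-0min) and no hour. The lighting and feeding of the fish are not given in the sources used here, so the hours are clock times only. The titles of 2 JpA livers name JpB, and these livers were assigned by their strain field.

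In vertebrates, the daily clock is a loop in which CLOCK and BMAL proteins switch on the *per* and *cry* genes, whose proteins then shut that activity down. Output genes of the loop, together with genes that respond to light, feeding and hormones, rise and fall once a day in most tissues. Fish skin is also directly lit, and in zebrafish peripheral tissues carry clocks that light can reset.

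Total counts of the 16 timed libraries ranged from 30135657 to 40610539. A library of the 17 h fish, JpA skin 9, stood apart. Its median correlation with the other timed libraries over log2 CPM (counts scaled to a library total of 1000000) was 0.897, against 0.951 to 0.972 in the other 15, and 65 ribosomal protein genes took 17.9% of its counts, against 6.35% to 7.51% in the others. Its TMM scaling factor was 0.693, against 0.961 to 1.11 in the others, so its plain CPM of other genes read low. The CPM given below are scaled by the total of all counts alone, whereas fitted swings and fold changes use the TMM scaling. Without JpA skin 9, 104 of the 105 genes passed the rule again (235 genes in the window), and without both 17 h libraries 100 did (829 in the window, from 3356 genes with a wave). The part of JpA skin 9 in the results was otherwise not tested. Summed CPM of fibroblast, scale and bone markers (10 genes, none at 0) ranged from 2282 to 5401 in the 6 libraries of 8, 11 and 14 h and from 1576 to 10325 in the 6 of 20, 23 and 2 h. None of these 10 markers, the 7 keratinocyte and mucous cell markers or the 8 blood and immune markers followed the wave by the rule. Of 15 pigment cell markers, 2 did (*gch1* and *slc45a2*). Keratinocyte and mucous cell markers, which define the labelled tissue, summed to 4431 to 7300 CPM at 8 to 14 h and 3607 to 5503 CPM at 20 to 2 h. In whole skin, a change in the share of a cell type and a change in RNA per cell cannot be told apart.

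The fitted waves of the 105 genes had unequal strength and shape. Below, day stands for the libraries of 8, 11 and 14 h and night for those of 20, 23 and 2 h, by clock time alone. Not every gene was higher by day throughout, as the hour mean was lowest at 8 h in 3 genes and highest at 17 h in 1. The fitted swing, from trough to peak, ranged from 0.59 to 11.9 on the log2 scale (median 1.45, against 0.54 over all genes tested). It was under 1 in 21 genes and over 2 in 19. These values chose the genes and are given as a description. The fitted peak lay at 9 to 11 h in 47 genes, at 11 to 13 h in 27 and at 13 to 15 h in 31. The hour with the highest mean CPM was 11 h for 53 genes, 14 h for 33 and 8 h for 16, and the lowest was 2 h for 28, 23 h for 24 and 17 h for 23. Fish labels alternate by hour, with 2 letters at 5, 11, 17 and 23 h and 1 letter at 2, 8, 14 and 20 h. Between neighbouring hours, such as 11 h and 8 or 14 h, the hour and the label series cannot be told apart. The range of the 8 hour means had a median of 1.61 log2 over the genes, and the mean gap between the 2 fish of an hour had a median of 0.34 log2. A range over 8 means and a mean gap are unlike measures, and the rule favours genes whose range is large beside that gap. In 46 of the 105 genes every library of 8, 11 and 14 h was above every library of 20, 23 and 2 h, beside 0.572% of all genes tested. These are the libraries that chose the genes, so nothing is read from that count or from the range set beside the gap.

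**Figure D1:**
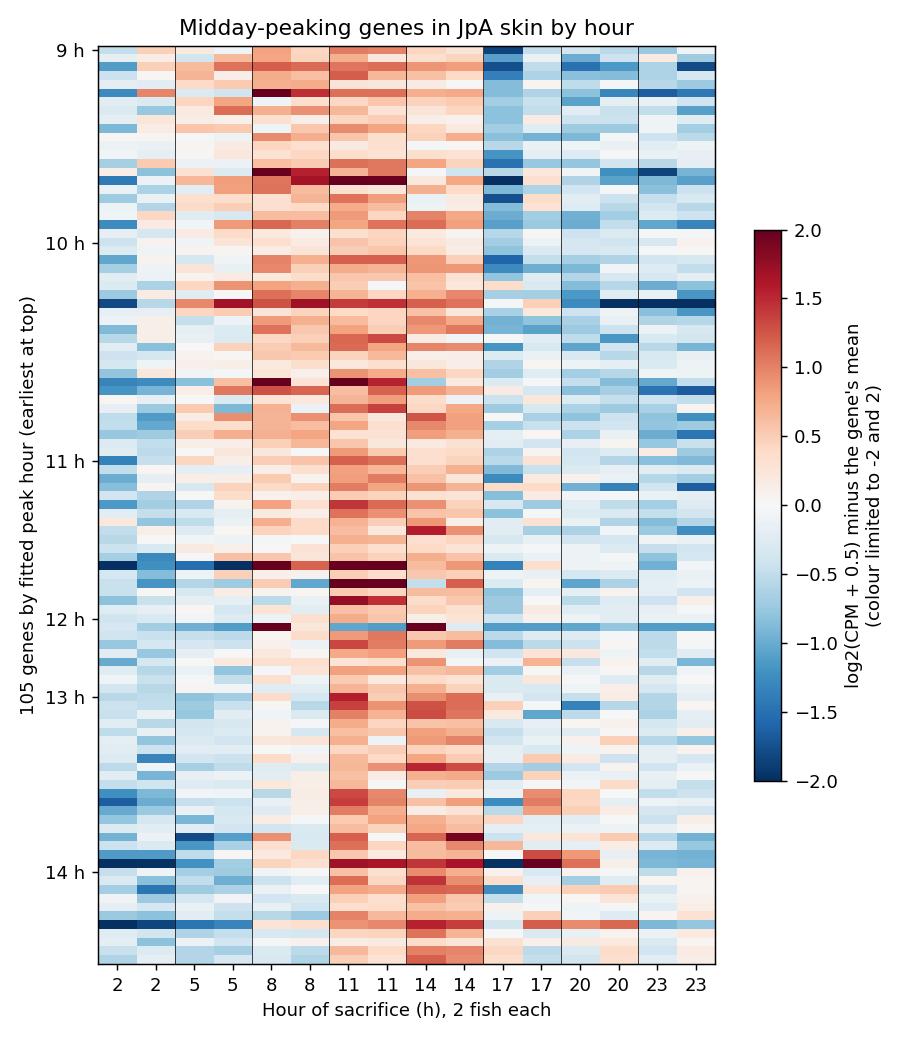
Each row is 1 of the 105 genes, ordered by fitted peak hour, and each column 1 of the 16 timed JpA skin libraries. Colour gives log2(CPM + 0.5) minus the mean of the gene over the 16 libraries. The columns of 8, 11 and 14 h are mostly red, the column at the left of 17 h is JpA skin 9 (TMM factor 0.693), and the genes at the bottom stay pale at 8 h.

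Membership rested on few fish. With each of the 16 libraries left out in turn, the number of genes in the window ranged from 31 (without JpA skin 7, 11 h) to 292 (without JpA skin 10, 17 h). It was 49 without JpA skin 5, 51 without 8, 235 without 9, 51 without 11, 48 without 13, 39 without 15, 46 without 16, 53 without 17, 57 without 18, 213 without 19, 44 without 20 and 54 without 21, while leaving out 6 or 12 gave 91 and 83. Leaving out the 11 h fish left 26 genes in the window, 20 of them among the 105, and leaving out the 20 h fish left 23, of which 22 were. Of the 105 genes, 21 passed the rule with any 1 library left out, and 8 with any 1 library or any 1 hour left out. Those 8 were LOC102217164, LOC102223115, LOC102225532, LOC102227947, LOC102232394, LOC102234506, LOC102236552 and LOC111609369. Named genes that passed with any 1 library left out were *sdha*, *angptl2*, *atxn1* and *mgat1*. At the limit of the rule, *LOC102227279* lay just inside (adjusted p 0.0499 in the edgeR fit), and *LOC102227865* and *c22h10orf90* just outside (0.0506 each).

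**Figure D2:**
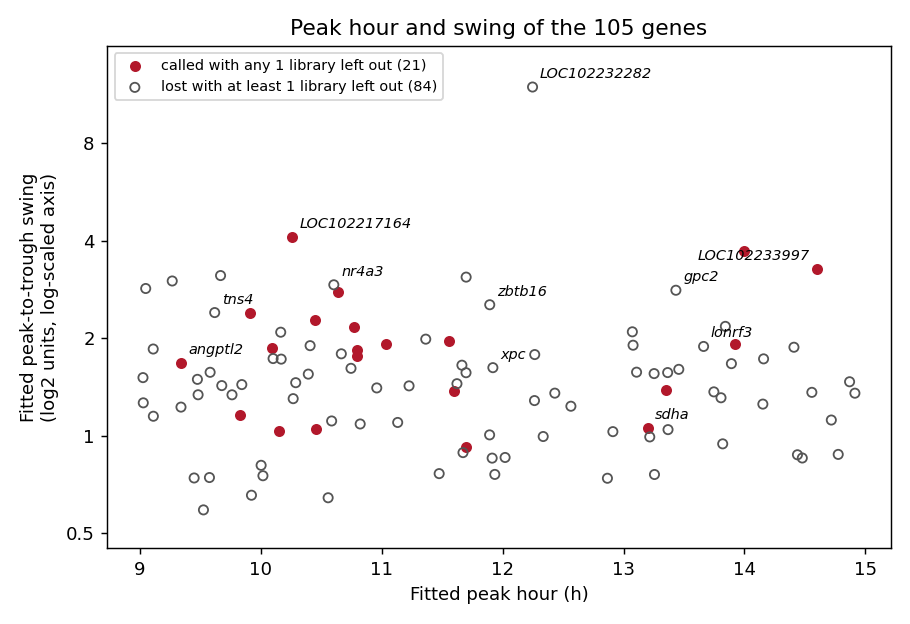
Fitted peak hour on the horizontal axis against the fitted trough-to-peak swing in log2 units on a log-scaled vertical axis, 1 point for each of the 105 genes. Filled points are the 21 genes that passed the rule with any 1 library left out, open points the other 84, and *LOC102232282* lies far above the rest at 11.9.

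*zbtb16* encodes a BTB zinc finger transcription repressor that glucocorticoids induce in mammals. It had 143 and 163 CPM in the 2 fish of 11 h, against 11.7 to 62.8 CPM in the other 14 libraries. Its fitted peak was 11.9 h and its swing 2.54 log2. Outside 11 h the highest libraries were 1 of 14 h (62.8 CPM) and 1 of 8 h (39.0 CPM), while the other fish of each of these hours stayed at 19.3 and 13.0 CPM. Without the 11 h fish *zbtb16* no longer passed the rule (adjusted p = 0.301 in the edgeR fit).

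*nr4a3*, an orphan nuclear receptor of the immediate early class, had 71.1 and 39.8 CPM at 11 h and 68.7 and 16.4 CPM at 8 h. At the 3 night hours it had 4.98 to 9.47 CPM. The fish of 8 h differed widely from each other, and the libraries of 14 h (8.06 and 15.3 CPM) overlapped the night values. Its swing was 2.93 log2, with a fitted peak at 10.6 h, earlier than that of *zbtb16*. *tcf19*, a factor linked to the cell cycle in mammals, had 32.8 and 32.6 CPM at 11 h and 28.0 and 29.7 CPM at 14 h, against 12.3 to 18.9 CPM at the 3 night hours. *atxn1*, a transcriptional corepressor, was high over a longer time, with 62.6 to 83.8 CPM at 5, 8 and 11 h and 32.9 to 46.6 CPM at the 3 night hours.

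*xpc* encodes the protein that first recognises bulky DNA damage, such as that from ultraviolet light, for nucleotide excision repair. It had 68.0 and 55.3 CPM at 11 h and 25.8 and 29.2 CPM at 14 h, against 11.1 to 21.6 CPM in the libraries of all other hours. The libraries of 8 h (13.4 and 17.9 CPM) were no higher than those of the night. Of 14 photoreactivation and excision repair genes tested, *xpc* alone followed the wave by the rule, and their summed CPM covered 290 to 364 at 8 to 14 h and 263 to 364 at 20 to 2 h. Without the 11 h fish, the adjusted p of *xpc* was 0.265 in the edgeR fit.

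All 3 genes annotated as *lonrf*, which encode RING finger proteins with a LON peptidase N-terminal domain, were among the 105. *lonrf1* had 98.6 and 83.3 CPM at 11 h and 28.2 to 42.3 CPM at the 3 night hours, with a fitted peak at 9.8 h. *lonrf2* had 285 and 231 CPM at 11 h and 69.5 to 194 CPM at the night hours. *lonrf3* had 67.6 and 51.6 CPM at 11 h and 7.80 to 34.4 CPM at the night hours. *lonrf2* and *lonrf3* both peaked at 13.7 h by the fit. At 17 h the 2 fish parted, with 249 CPM of *lonrf2* and 53.2 of *lonrf3* in JpA skin 10 but 96.3 and 10.5 CPM in JpA skin 9. All 3 genes had their highest hour mean at 11 h. *lonrf1* is described to complete the family, a choice made after the values were seen.

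**Figure D3:**
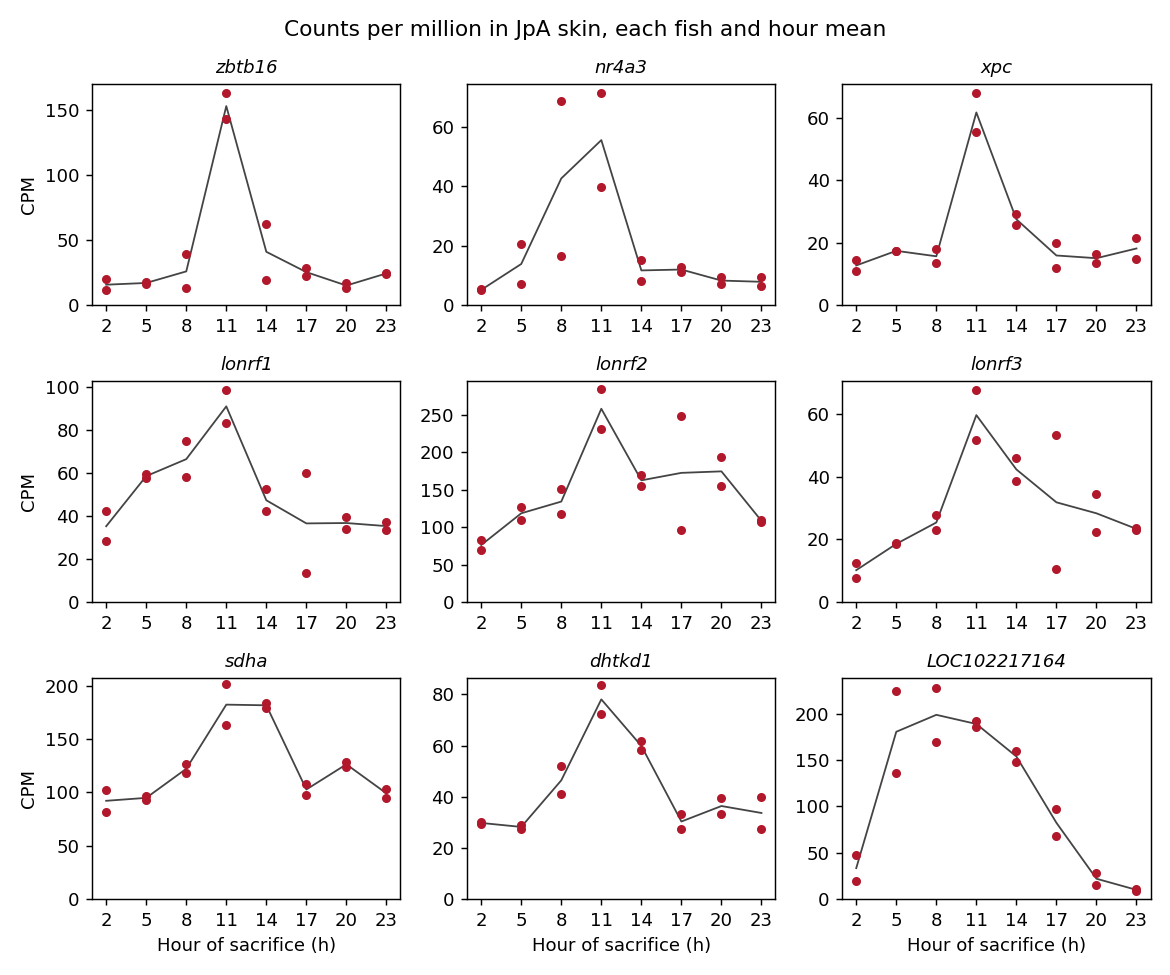
CPM on the vertical axis, from 0, against the hour of sacrifice, with 1 point for each fish and a line through the hour means, for 9 of the 105 genes. *zbtb16* and *xpc* are high at 11 h, *lonrf2* and *lonrf3* also at 17 h in 1 of the 2 fish, and *LOC102217164* is high from 5 to 14 h.

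Several of the genes work in mitochondria or in intermediary metabolism. *sdha*, the flavoprotein subunit of succinate dehydrogenase, had 163 to 202 CPM at 11 and 14 h, 118 and 127 CPM at 8 h and 81.7 to 128 CPM at the 3 night hours. The 8 h values thus lay within the night range. *dhtkd1*, an enzyme of lysine breakdown, had 72.4 and 83.7 CPM at 11 h and 58.1 and 61.7 CPM at 14 h, against 27.6 to 39.8 CPM at the night hours. *oat*, ornithine aminotransferase, was already high at 8 h (114 and 97.8 CPM), and had 73.2 to 97.0 CPM at 11 and 14 h and 31.3 to 61.2 CPM at the night hours. Of these, *dhtkd1* and *oat* did not overlap between the day and night libraries, which also chose them.

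*nadk*, which makes NADP from NAD, had 60.5 and 52.6 CPM at 11 h, and its day libraries (33.4 to 60.5 CPM) lay just above its night libraries (27.0 to 33.1 CPM). *soat1*, which esterifies cholesterol, had 13.8 and 16.0 CPM at 11 h and 3.56 to 8.07 CPM at night. *mgat1*, a Golgi enzyme of N-glycan assembly, had a shallow wave of 0.92 log2, at 42.7 to 59.1 CPM by day and 30.6 to 39.4 CPM by night. The mitochondrial genes *oma1* (an inner membrane protease), *tefm* (a transcription elongation factor) and *tmem177* (of cytochrome oxidase assembly) also belonged to the 105, with swings of 0.64, 0.95 and 1.47 log2. No gene of the lists of sterol synthesis (17 tested) or lipid and glucose use (13 tested) was among them.

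A further group acts at the cell surface, in the cytoskeleton or outside the cell. *tns4*, a focal adhesion protein of the tensin family, had 189 and 118 CPM at 8 h, 63.7 and 82.8 CPM at 11 h and 30.1 and 39.0 CPM at 14 h, and 10.7 to 43.6 CPM at the night hours. Its libraries were highest at 8 h and had come down to night values by 14 h. *eppk1*, a keratin-binding plakin of epithelia, had 172 and 204 CPM at 11 h and 47.0 to 81.4 CPM at night, and its fish of 8 h had 128 and 72.2 CPM. *lyve1*, the hyaluronan receptor of lymphatic vessels, had 12.7 to 20.1 CPM by day and 2.74 to 10.0 CPM by night. Whether the cells that carry it or their RNA changed cannot be told apart.

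*angptl2*, a secreted angiopoietin-like protein, had 8.00 to 12.9 CPM by day and 2.86 to 5.66 CPM by night. *clec11a*, a secreted growth factor of the C-type lectin group, had 10.7 to 19.7 CPM by day and 4.87 to 8.78 CPM by night. *arhgef33*, a predicted guanine nucleotide exchange factor, had 43.4 to 72.3 CPM by day and 25.9 to 41.7 CPM by night, and peaked at 9.1 h. In all 3 the groups, which also chose the genes, did not overlap. The phosphatase gene *ppm1e*, the poly(A) polymerase gene *fam46b* and the WD repeat gene *wdr76* swung by 1.05, 1.09 and 1.78 log2.

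The remaining named genes are given as examples picked after their values were seen. *srsf2*, a splicing factor, had 497 to 594 CPM at 11 and 14 h and 309 to 432 CPM at the 3 night hours, with 300 and 354 CPM at 8 h. *znf598*, a ubiquitin ligase that senses stalled ribosomes, had 47.6 and 45.8 CPM at 11 h and 12.6 to 31.7 CPM at night, and *slc5a3*, a myo-inositol transporter, 42.4 and 40.8 CPM at 11 h and 12.0 to 28.6 CPM at night. The kinase gene *prkcd* had 71.7 to 97.0 CPM by day and 44.7 to 66.7 CPM by night. *wfs1*, an endoplasmic reticulum membrane protein, varied little within each phase, at 25.0 to 27.1 CPM by day and 17.0 to 19.9 CPM by night. *prkcd* and *wfs1* swung by 0.76 and 0.74 log2, and their day and night libraries, which also chose them, did not overlap.

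The smallest adjusted p of the edgeR fit and the largest swings belonged to genes without a name. Some of these genes are shown here because of their values. Not all of those shown swung more than the named genes, as *LOC102223115* swung by 1.92 log2 and *nr4a3* by 2.93 log2. *LOC102217164* (chromosome 20, 20911827 to 20915354 in the X_maculatus-5.0-male annotation) had 148 to 228 CPM by day and 9.32 to 47.4 CPM by night, with a swing of 4.12 log2. It was also high at 5 h (136 and 224 CPM) and intermediate at 17 h (67.9 and 96.8 CPM). *LOC102223115* (chromosome 17, 9176940 to 9189241) had 178 and 165 CPM at 11 h, 96.8 to 114 CPM at 8 and 14 h and 30.0 to 60.3 CPM at night. *LOC102225532* (chromosome 16, 11105740 to 11108152) had 33.2 to 52.8 CPM by day and 6.43 to 13.5 CPM by night. *LOC102233997* peaked late, at 14.6 h, with 83.4 and 93.2 CPM at 14 h, 61.4 and 70.5 CPM at 20 h and 7.33 and 8.53 CPM at 2 h. *LOC102232282*, with the largest fitted swing of the 105 (11.9 log2), had 247 CPM in 1 fish of 14 h, 14.2 CPM in 1 of 8 h and at most 0.763 CPM in the other 14 libraries. It therefore varied between single fish rather than between hours.

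Some members were neighbours. On chromosome 9, 4 tested genes in a row belonged to the 105, *LOC102237839*, *LOC102237585*, *LOC102237069* and *LOC102237323* (20986261 to 21012171). Their fitted peaks were at 10.8, 10.2, 9.05 and 11.6 h. On chromosome 4, *LOC102236300* and *LOC102236552* lay side by side (10117931 to 10128486), but peaked at 14.7 and 10.8 h. Chromosome 9 held 12 of the 105 genes, of 931 tested there (1.29%), and the shares of the other chromosomes with members ran from 0.232% to 0.910%. Reads that match near-identical copies could be split between neighbours of a gene family, which was not tested.

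A 12 h wave was fitted on top of the 24 h wave, to ask whether the shape of the genes departs from a single smooth wave. The libraries and their residual spread are those that chose the genes, so its counts are a description. With the edgeR quasi-likelihood test 0 of the 105 genes passed, and 0 of all 20624 did (0%). At an unadjusted p under 0.05, 35 of the 105 genes (33.3%) and 2279 of all genes (11.1%) did. The DESeq2 likelihood ratio test called 16 of the 105 and 695 genes in all, and without JpA skin 18 edgeR called 1 and 42. A sharper shape than 1 wave was thus not detectable with 2 fish an hour in the main test.

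The place of these genes beside the known clock and stress pathways was read from 18 lists. Of 13 clock genes tested, 7 followed a 24 h wave (*clock*, *csnk1d*, *hlf*, *nfil3*, *per1*, *per2* and *per3*), and apart from *per2*, set aside by the rule, they peaked outside the window, with *per3* at 7.7 h, *csnk1d* at 8.4 h and *hlf* at 15.6 h. Of 14 immediate early genes, 5 followed the wave and only *nr4a3* was among the 105. Of 12 glucocorticoid responsive genes, *per1* and *zbtb16* did. Of 21 genes of protein folding in the endoplasmic reticulum, 3 followed the wave (*pdia4*, *pdia6* and *sdf2l1*). Of 15 pigment cell markers 2 did (*gch1* and *slc45a2*), and of 17 sterol synthesis genes 1 (*sc5d*), all with peaks outside the window. Of 12 CREB and SIK signaling genes, only *sik2* and *ppp1r1b* did, set aside by the rule. None of 12 heat shock genes, 18 cell division genes or 17 ribosome biogenesis genes followed a wave, nor any of 7 hepatocyte markers. Over all genes tested the share was 1.99%.

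Sham was compared with 0 min within each strain and age, in skin libraries that did not enter the choice of the genes. There were 7 labelled sham against 6 labelled 0 min or 0pt. The labels do not explain 0pt, which was set with 0 min. They give no hour for these libraries, so the sham label and the hour of sacrifice cannot be told apart. Among the JpA 20-month libraries, 4 libraries carry only 2 fish labels, each once as sham and once as 0pt, and were treated as independent. *LOC102232282* had too few counts to be tested there. The edgeR quasi-likelihood test called 0 of 104 members tested, against 0.152% of all genes higher and 0.00978% lower in sham. The smallest adjusted p of a member was 0.0644. At an unadjusted p under 0.05 there were 30 of 104 members (28.8%), and 4540 of 20450 genes (22.2%). The median difference was 0.13 log2 over the members and 0.0068 over all genes. DESeq2 called 17 members, 13 higher and 4 lower in sham, of 1823 genes called. Without JpA skin 3 (sham) edgeR called 3 members, of 305 genes called. Leaving out JpA skin 25 (sham) gave 2, of 505. A count of 0 therefore does not show that the members were alike in sham and 0 min. *LOC102220757*, an example picked after its values were seen, had 203 and 122 CPM in the JpA 13-month sham libraries and 2.20 and 3.38 CPM at 0 min. In the JpA 20-month skins it had 6.13, 5.28 and 17.4 CPM in sham and 2.57 and 1.76 CPM at 0pt. In JpB it had 2.34 and 2.56 CPM in sham and 1.10 and 1.61 CPM at 0 min.

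Liver was compared with skin of the same strains, ages and years (10 against 13 libraries, none of them timed). In all, 5 fish labels had both tissues, and 2 of these labels gave 2 skin libraries each. The libraries were treated as independent. By 7 hepatocyte markers the tissues matched their labels, with sums of 33820 to 48570 CPM in liver and 43.9 to 158 CPM in skin. The 7 keratinocyte and mucous cell markers summed to 215 to 488 CPM in liver and 4357 to 8697 CPM in skin. The 15 pigment cell markers ran the other way, with 795 to 1265 CPM in liver and 175 to 326 CPM in skin. *LOC102232282* and *gpc2* had too few counts to be tested. Of 103 members tested, 41 were higher in liver, beside 34.2% of all genes tested, and 45 were lower, beside 46.5%. These shares (39.8% and 43.7% of the members) lie near those of all genes. A scaling choice weighs on them. Without TMM scaling the median over all genes was -2.13 log2, against -0.29 with it, and 12 members were higher and 83 lower. In the libraries of the 5 labels with both tissues, a replicate block by fish label called 25 members higher and 36 lower, of 12156 genes called.

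*dgat2*, which makes triglycerides, had 78.7 to 167 CPM in liver (median 110) and 0.252 to 5.64 CPM in skin (median 2.90), a difference of 7.13 log2 (edgeR adjusted p 2.75e-15). *dhtkd1* had 118 to 242 CPM in liver and 23.0 to 69.1 CPM in skin (3.99 log2, edgeR adjusted p 1.6e-15). *oat* had 176 to 474 CPM in liver and 26.7 to 81.7 CPM in skin. The tissues did not overlap for these enzymes. The share of all genes without overlap was not counted, and 34.2% of all genes tested were called higher in liver, so nothing is read from that separation.

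On chromosome 9, *LOC102237323* had 230 to 1578 CPM in liver and 6.82 to 20.6 CPM in skin (8.25 log2, edgeR adjusted p 3.04e-17). Its neighbours *LOC102237585* and *LOC102237839* were 8.16 and 4.72 log2 higher in liver. The remaining gene of the row, *LOC102237069*, had 4.19 to 16.8 CPM in liver and 25.3 to 61.7 CPM in skin, a TMM-scaled difference of -0.11 log2 that did not pass the test. The row of 4 neighbours therefore did not move as 1 unit between tissues.

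Nearly absent from liver was *arhgef33*, with 0.153 to 0.674 CPM there and 42.3 to 111 CPM in skin (-5.68 log2, edgeR adjusted p 1.37e-17). *tns4* had at most 0.234 CPM in any liver and 10.8 to 219 CPM in skin. *LOC102227279* had 0.310 to 0.796 CPM in liver and 43.8 to 84.6 CPM in skin, and *LOC102225532* at most 0.122 CPM in liver and 19.2 to 46.7 CPM in skin. For *sdha* the TMM-scaled difference was 0.41 log2 although its CPM was lower in liver (27.3 to 50.3 against 53.9 to 141 in skin). Its direction, like that of *fam46b*, *lonrf2* and *lonrf3*, turned without TMM scaling, and no direction is given for them. *oat*, *tns4*, *sdha* and *LOC102237069* are given here by choice after their values were seen. The liver effect differed between JpB and JpA (interaction term, adjusted p under 0.05) in 12 of 103 members, beside 7.67% of all genes. The strains do not overlap in age and share no label date, and the JpA livers carry other label dates than the JpA skins. Strain, age, label date and hour of sacrifice cannot be told apart in this term.

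**Figure D4:**
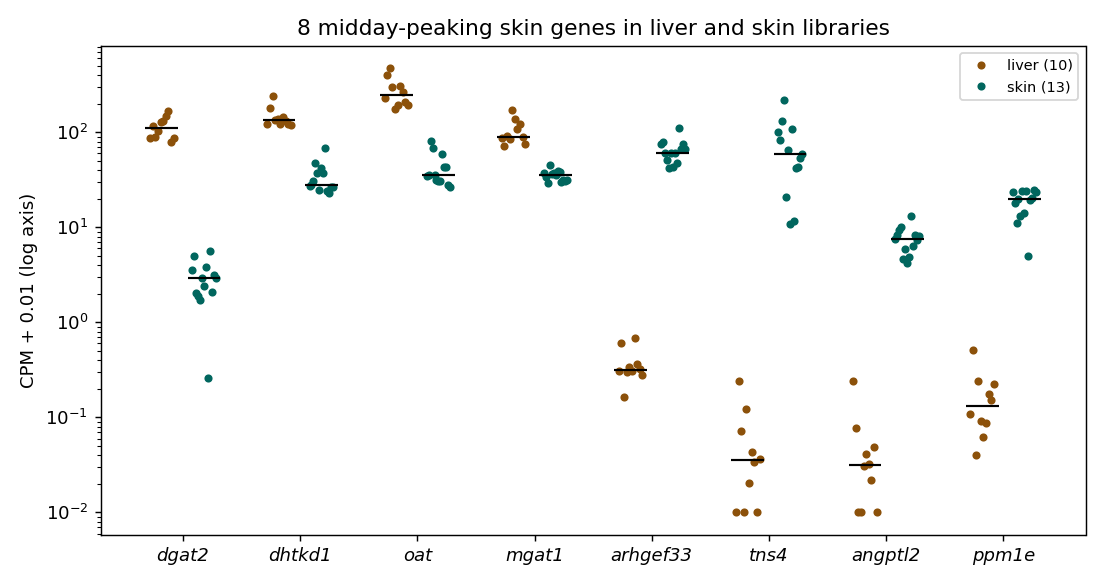
CPM plus 0.01 on a log axis for 8 of the 105 genes, with 1 point for each of 10 liver libraries (brown) and 13 skin libraries (green) and a bar at the median. *dgat2*, *dhtkd1*, *oat* and *mgat1* lie higher in liver, and *arhgef33*, *tns4*, *angptl2* and *ppm1e* lie near the bottom of the axis there.

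The strains were compared in skin over all libraries, 30 of JpB, in which 4 pairs of repeat libraries were each counted once, and 25 of JpA. These libraries carry 23 fish labels in each strain, as some labels still entered more than once, and were treated as independent. With all libraries of a label summed, 9 members were higher in JpB and 27 lower. Of 104 members tested, 11 were higher in JpB, beside 13.2% of all genes, and 27 were lower, beside 12.3%. The strains do not overlap in age. Of the 25 JpA libraries, 16 are the timed ones that chose the genes, so the counts over all libraries are a description. The hours of the timed libraries cover the whole day, while the other libraries carry no hour. Without the 16 timed libraries, 1 member was higher in JpB and 10 were lower, beside 4.88% and 5.95% of all genes. Only 2 label years hold both strains. In the earlier of them, 3 were higher and 2 lower, beside 2% and 1.84%. The median difference there was -0.37 log2 over the members and -0.051 over all genes. Its JpA libraries include the 16 timed ones that chose the genes, so these values are a description. No label date is shared by the strains, also within these years. Strain, age, label date and hour of sacrifice cannot be told apart in these comparisons.

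Among the members with the smallest p over all skin libraries, *lonrf3* had 6.95 to 24.0 CPM in JpB (median 10.8) and 7.80 to 67.6 CPM in JpA (median 18.4), a difference of -1.04 log2 (edgeR adjusted p 1.46e-05). In the JpA libraries without an hour it had 9.59 to 18.1 CPM, and the difference was -0.45 log2 (edgeR adjusted p 0.043). *lonrf2* had 60.9 to 133 CPM in JpB (median 85.7) and 69.5 to 285 CPM in JpA (median 110), and its difference of -0.53 log2 came to -0.19 without the timed libraries, where it did not pass (edgeR adjusted p 0.213). *LOC102238014* ran the other way, with 15.8 to 63.1 CPM in JpB (median 41.2) and 6.07 to 40.1 CPM in JpA (median 19.1). It was 1.02 log2 higher in JpB over all libraries, and 0.48 without the timed ones (edgeR adjusted p 0.0578). The ranges of the strains overlapped in all 3 genes. The timed libraries also chose these genes, so the differences over all libraries are a description.

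The members differed most clearly in the libraries of the later of these years, also the latest label year, with 4 of JpB (9 months) and 4 of JpA (13 months), none of which entered the choice. There 32 of 104 members were lower in JpB, beside 6.47% of all genes, and 0 were higher, beside 6.31%. The median difference was -0.48 log2 over the members and -0.0044 over all genes. Set side by side and without a test of the difference, 69 of 145 genes that peaked from 3 to 9 h were lower in JpB and 2 were higher, while 3 of 154 that peaked from 15 to 3 h were lower and 23 higher. The clock genes *per1*, *per2* and *per3* were also lower in JpB (-1.42, -2.10 and -1.14 log2), as was *hlf*, which peaked at 15.6 h (-0.52). *nfil3*, which peaked at 18.7 h, was 0.96 log2 higher, while *clock* (peak at 16.5 h, -0.34 log2) and *csnk1d* (-1.11 log2) did not pass the test. The hours at which these fish were taken are not given in the labels, and the label dates of the strains differ within that year.

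*zbtb16* had 12.0, 34.8, 13.1 and 20.0 CPM in the 4 JpB libraries of that year, against 69.1, 93.8, 121 and 113 CPM in the 4 JpA libraries (-2.49 log2, edgeR adjusted p 0.00606). The JpB values lay within those of the timed JpA fish at hours other than 11 h, and all 4 JpA values were above every timed library outside 11 h. *LOC102223115* had 36.9, 36.3, 37.7 and 36.5 CPM in JpB and 91.7, 86.0, 121 and 89.1 CPM in JpA (-1.58 log2, edgeR adjusted p 0.00177). *LOC102227947* had 48.3 to 76.4 CPM in JpB and 125 to 170 CPM in JpA. In all 3 genes the strains did not overlap in that year. The share of all genes without overlap was not counted, so nothing is read from that separation. The untimed JpA skins of 20 months had 16.7 to 211 CPM of *zbtb16* and 39.9 to 81.4 CPM of *LOC102227947*, which overlap these JpB values. Their 56.1 to 73.0 CPM of *LOC102223115* lay above them.

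*tns4* had 42.0 to 59.9 CPM in the JpB libraries and 83.7 to 219 CPM in the JpA libraries, and *lyve1* 5.92 to 7.39 CPM in JpB and 11.4 to 23.7 CPM in JpA. The untimed JpA skins of 20 months overlapped these JpB values, with 10.8 to 108 CPM of *tns4* and 5.67 to 23.8 CPM of *lyve1*. *nr4a3* had 5.23 to 6.22 CPM in JpB, but its JpA libraries were spread over 6.71, 7.79, 87.7 and 29.6 CPM (-2.79 log2, edgeR adjusted p 0.0497), the 2 high ones being the sham fish. All 3 *lonrf* genes were lower in JpB, by -0.71 log2 for *lonrf1*, -0.60 for *lonrf2* and -0.85 for *lonrf3*. The members named here beyond *zbtb16*, *LOC102223115* and *LOC102227947* were picked after their values were seen.

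In the same libraries, 7 of 10 fibroblast, scale and bone markers were higher in JpB, and their summed CPM was 13710 to 34220 in JpB and 2700 to 10730 in JpA. Of 7 keratinocyte and mucous cell markers, 2 were lower in JpB (sums of 4357 to 5356 CPM in JpB and 4921 to 8697 CPM in JpA). Pigment cell markers summed to 315 to 326 CPM in JpB and 175 to 269 CPM in JpA (3 of 15 higher), and nerve and Schwann cell markers to 267 to 318 CPM in JpB and 129 to 179 CPM in JpA (1 of 11 higher). The pigment cell markers were higher in liver than in skin, so their sum is not particular to skin. Of 7 hepatocyte markers 4 were higher in JpB, at sums of 108 to 158 CPM in JpB and 73.9 to 101 CPM in JpA. Of 12 glucocorticoid responsive genes, 6 were lower in JpB and 1 was higher (median -1.17 log2), and of 14 immediate early genes 5 were lower (median -1.34 log2), *zbtb16* and *nr4a3* among them. The part of these cell types and gene groups in the difference of the members was not tested. With a JpB library left out, the count of members called fell to 15 (without JpB skin 30), 14 (without 31), 10 (without 32) and 14 (without 33), all lower in JpB. Calls over all genes fell from 2666 to 1202, 877, 851 and 1076 in the same order. With a JpA library left out, 28 to 36 members were called, of 2204 to 3531 genes in all. Up to 3 of these members were then higher in JpB.

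**Figure D5:**
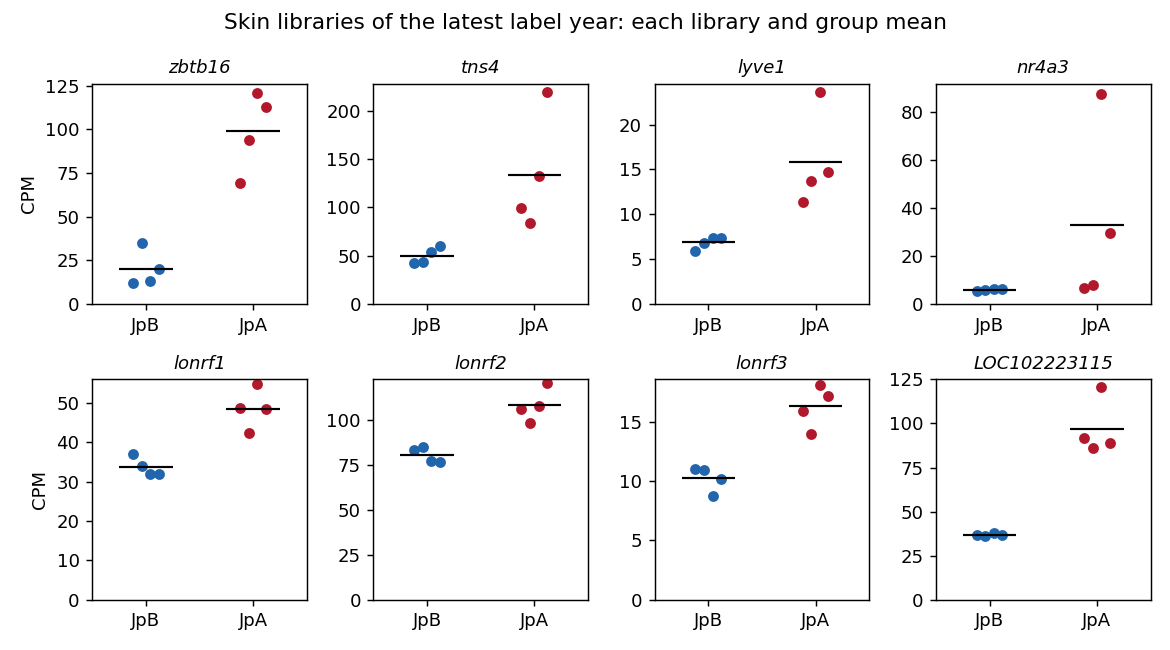
CPM, from 0, in the skin libraries of the latest label year, with JpB (4 libraries, blue) left of JpA (4 libraries, red) and a bar at each mean, for 8 of the 105 genes. JpB lies below JpA without overlap in all 8 panels, while 2 of the JpA values of *nr4a3* (6.71 and 7.79) come close to the JpB values. The genes other than *zbtb16* and *LOC102223115* were picked after their values were seen. The share of all genes without overlap was not counted, so nothing is read from the separation. JpA skins of the earlier label year are not shown.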

How the data were processed

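The values deposited are raw counts for 27242 gene models in 65 libraries. Per their methods, the authors mapped trimmed paired-end reads to the version 5.0 genome using TopHat2, and obtained the counts with featureCounts (versions not given in the sources used here). Total counts ranged from 26843901 to 98104664 per library. Models were fitted using edgeR 4.0.16 under R 4.3.3 (filterByExpr with a smallest count of 10, TMM, glmQLFit, glmQLFTest, Benjamini-Hochberg over all genes tested), with DESeq2 1.42.0 as an alternative. Figures were drawn in Python 3.11.15 with matplotlib 3.10.9. Gene names came from RefSeq (all identifiers matched).

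The members and gene lists were chosen with earlier results of these data known. Genes named are the 20 named members with the smallest adjusted p, members in a list, those at the threshold and, in other comparisons, up to 8 with the smallest p, with exceptions stated. The values of 1 gene at the threshold are not reported here. Repeat libraries of 1 fish label were summed where chi-square per degree of freedom was under 3. Labels do not say how libraries of a group were taken, so p-values measure the spread between libraries. Leaving out single libraries of the latest label year was added after the data were seen. On simulated counts with 200 changed genes, 13% of waves of 1 log2 and 76% of waves of 2 log2 were found among 19814 genes.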

Additional observations from a re-analysis of the deposited data

Results flagged for a closer look

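Among the genes named for liver and for the skin libraries of the latest label year, 32 groups of 4 or 6 libraries were searched for a library far from the others, and 4 were found, where chance gives about 1 in 20. JpA skin 3 had 121 CPM of *LOC102223115*. JpB liver 3 had 0.674 CPM of *arhgef33* and JpA liver 2 had 0.603 CPM, each above the rest of its group. JpA liver 2 had 201 CPM of *LOC102237839*, below the rest.

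By the interaction term in edgeR, the difference of liver from skin was unequal between the JpB and JpA libraries in 4 of the members with a gene name. Strain, age, label date and hour of sacrifice cannot be told apart there. The log2 ratio of liver to skin in JpB minus that in JpA was 1.34 for *mgat1*, 1.01 for *lonrf3*, 0.80 for *lonrf1* and -0.71 for *hectd2*, a gene lower in liver.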

How the results depend on the processing

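The 105 genes depended on the processing as follows. Without TMM scaling 42 genes lay in the window (40 of them among the 105), and with the DESeq2 likelihood ratio test 519 did (104 of them) of 2052 genes with a wave. With the fish label series as a covariate, 105 genes lay in the window (94 of them among the 105 members), of 436 with a wave. Without single libraries or hours the window held 23 to 829 genes, and 107 to 3356 genes had a wave. In sham over 0 min, DESeq2 called 17 members, JpB alone 1, and leaving out single libraries 0 to 3. For the 12 h wave DESeq2 called 16, and leaving out single libraries 0 to 1. In JpB over JpA, 11 were called without the timed libraries, 5 in the earlier label year with both strains, and 10 to 36 in the later with single libraries left out. With all libraries of a fish label summed, an alternative added after the data were seen, 36 were called, 35 of them also called in the main comparison. The replicate block by title number gave 23 called members in that comparison. The numbers do not pair the samples, as none of 18 JpA libraries correlated best with the JpB library of its own number (median correlation 0.054). Of livers and skins, 5 fish labels had both, and a replicate block by fish label called 61 members. For single named genes, 898 of the values under an alternative kept the call, 258 lost it and 7 turned. For 24 h swings, keeping the call refers to the adjusted p alone, whatever the peak hour. With single libraries or hours left out, 351 swing values kept the call and 201 lost it. With single livers left out, all 200 values of liver over skin kept it. Liver over skin turned without TMM scaling in *sdha* (-1.45), *fam46b* (-1.02), *lonrf2* (-1.18) and *lonrf3* (-1.32). JpB over JpA turned in the earlier label year for *mgat1* (0.064) and *LOC102227279* (0.17), and in the later for *sdha* (0.18). The causes were not tested. Promoter motifs were not run, since no sequences were used here. On the simulated counts, waves of 1 log2 were mostly missed. All but 200 genes were flat there, so the shares found need not hold for the data.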
